A study of Mus musculus with 9 samples.

Results

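The Hippo pathway is a kinase cascade that keeps the transcriptional coactivators YAP and TAZ out of the nucleus. MST kinases, bound to their adaptor SAV1, activate LATS kinases, which phosphorylate YAP and TAZ so that they are held in the cytoplasm or degraded. NF2 (Merlin), WWC1 (KIBRA) and the angiomotins are scaffolds that bring the kinases to the membrane or bind YAP directly. When YAP and TAZ enter the nucleus they bind TEAD transcription factors, and Lats2 and Amotl2 are among the genes they are known to induce, a route of negative feedback. In the brain, YAP and TAZ are found in neural progenitors and astrocytes and are low in most mature neurons.

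The genes described are the kinases Lats1, Lats2, Stk3 and Stk4, the adaptor Sav1, and the scaffolds Nf2, Wwc1, Amot, Amotl1 and Amotl2. They were chosen by name, with earlier results of these data known. Of these 10 genes, 9 were measured, out of 18193 measured genes in all, and Stk3, which encodes MST2, was named by no probe set used here and was not analysed here. The 9 genes had 28 probe sets between them, and each gene is represented by the one of highest mean value, while the other 19 were checked. RNA was measured on Affymetrix mouse expression arrays in 3 groups of 3 biological replicates lettered A to C, as values on the log2 scale. The first group were cortical neurons, which the methods prepare from late embryos or newborn pups, kept in Neurobasal with B27, glutamine and AraC, a drug that kills dividing cells. The second were native neural stem cells (NSCs), whose source and age are not given in the sources used here. The third were yNSCs, neural stem cells made from cortical neurons by doxycycline-inducible expression of wild-type YAP, delivered in the methods by lentivirus together with the transactivator rtTA, and then passaged without doxycycline. NSCs and yNSCs were both grown in DMEM/F12 with N2, EGF, bFGF, heparin and glutamine, and all cultures held antibiotics, so the neurons differ from the other groups in medium as well as in cell type. Neither the labels nor the methods say that the neurons on the arrays carried the viral vectors, and the yNSCs are cells that had grown out after induction, so events during the induction are not seen.

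Arrays had medians between 4.90 and 5.01, but upper quartiles of 6.95 to 7.03 in neurons, 7.32 to 7.34 in NSCs and 7.24 to 7.30 in yNSCs. A group mean below the mean lower quartile of its arrays (3.71 in neurons, 3.43 in NSCs and 3.49 in yNSCs) is called near background. No probe set that stands for a member was near background in any group. NSC replicate A stood somewhat apart, with 162 genes more than 2-fold from the other arrays of its group against at most 30 for any other array. The labels were checked with cell type markers, summed per array after undoing the logarithm. All 6 neuron markers were lower in yNSCs and in NSCs than in neurons, with sums of 21769 to 22450 in neurons, 237 to 271 in NSCs and 335 to 362 in yNSCs. All 6 genes of neural stem cells and division were higher in both, with sums of 4426 to 4771 in neurons, 18484 to 21153 in NSCs and 18360 to 19003 in yNSCs. The neuron cultures also held microglia markers (6 of 6 higher than in either other group, sums of 3648 to 5114 against 80 to 83 in NSCs and 168 to 171 in yNSCs, with Aif1 near background in both and C1qb in NSCs). Astrocyte markers summed to 6385 to 6756 in neurons, 2307 to 3516 in NSCs and 5522 to 6383 in yNSCs, where 4 of 6 were higher than in NSCs, Gfap and Aqp4 among them, and Gjb6 was near background throughout. The 5 oligodendrocyte precursor markers summed to 4424 to 4530, 10101 to 11674 and 8725 to 8903 in the same order, mostly through Olig1 and Olig2. Singly they did not move together: against neurons 2 were higher and 3 lower in yNSCs, and 3 higher and 2 lower in NSCs. Pdgfra and Sox10 were lower in both, with Pdgfra means of 9.61 in neurons, 7.15 in NSCs and 4.04 in yNSCs. The 5 mural markers summed to 146 to 179, 631 to 907 and 5021 to 6716, mostly through Acta2 and Tagln, which other cells also express, with Rgs5 near background in neurons and NSCs and Myh11 in neurons and yNSCs. The 4 endothelial markers summed to 64 to 88 on all arrays, with Pecam1 near background in every group. These markers move with the same groups as the genes below, and their part in the differences was not tested. In bulk RNA, fewer cells of a type and less RNA per cell cannot be told apart.

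The promoters of these genes were searched for the letters that TEAD factors bind, and the windows that hold them are printed since YAP acts on genes through TEAD. RefSeq windows of 300 bases on GRCm38.p6, 250 before and 50 after a transcription start, were found for all 9 measured genes, 11 windows in all because Lats2 and Nf2 have a pair each. The letters GGAATG on either strand (CATTCC on the other), the core of TEAD sites, occurred in 3 of these 11 windows and in 14.7% of all 32851 windows. The 3 windows are shown with the match in capitals.
Lats2: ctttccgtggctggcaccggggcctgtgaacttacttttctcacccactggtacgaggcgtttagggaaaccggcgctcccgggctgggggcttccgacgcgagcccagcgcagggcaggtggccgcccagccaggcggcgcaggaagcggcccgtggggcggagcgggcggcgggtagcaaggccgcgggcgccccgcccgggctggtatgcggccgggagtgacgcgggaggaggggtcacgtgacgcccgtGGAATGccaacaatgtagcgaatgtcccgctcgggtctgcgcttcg
Sav1: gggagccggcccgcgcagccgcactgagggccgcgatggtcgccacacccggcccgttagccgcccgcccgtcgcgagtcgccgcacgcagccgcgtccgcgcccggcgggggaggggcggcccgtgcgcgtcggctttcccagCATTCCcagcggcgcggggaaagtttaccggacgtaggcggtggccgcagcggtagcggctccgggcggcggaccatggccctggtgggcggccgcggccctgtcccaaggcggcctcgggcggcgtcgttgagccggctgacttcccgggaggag
Amotl2: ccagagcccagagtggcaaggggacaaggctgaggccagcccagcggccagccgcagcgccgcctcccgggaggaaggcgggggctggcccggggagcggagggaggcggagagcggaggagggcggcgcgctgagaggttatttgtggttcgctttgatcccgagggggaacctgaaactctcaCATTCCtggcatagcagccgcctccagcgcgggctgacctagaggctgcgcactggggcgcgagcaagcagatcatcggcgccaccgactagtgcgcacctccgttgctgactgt
The Lats2 window is chr14:57746074-57746373 on the minus strand, and its match lies on the gene's strand 4 bases after the start. The Sav1 window is chr12:69986953-69987252 on the minus strand, with the match on the opposite strand 106 bases before the start. The Amotl2 window is chr9:102717554-102717853 on the plus strand, with the match on the opposite strand 65 bases before the start. All 3 windows were rich in G and C, with 71.7%, 78.3% and 68.7%, against a median of 52.7% over all windows. Windows without a match were also above that median for Lats1 (73%), Wwc1 (68%), Stk4 (61.7%), Amotl1 (61.3%) and a window of Nf2 (56.3%). Those of Amot (46%), the other of Nf2 (34.3%) and the other of Lats2 (42.7%) were below it. The letters TGAGTCA, bound by AP-1, and TGACGTCA, bound by CREB, were searched on both strands in the same way and occurred in none of the 11 windows, against 5.20% and 1.79% of all windows. A match of so few letters is a description of the sequence and does not show binding.

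yNSCs were compared with the neurons they were made from, and 7 of the 9 genes were called. Against neurons, 5 of the 9 genes were higher in yNSCs (Lats1, Lats2, Sav1, Amot and Amotl1), 2 were lower (Wwc1 and Amotl2) and 2 were not called (Stk4 and Nf2). Genes are called here if their limma p, adjusted by Benjamini-Hochberg across all 18193 genes, was under 0.05. By the same rule 34.6% of all genes were called higher and 27.9% lower, so a call by itself is common here. The median difference of the 9 genes was 0.49 on the log2 scale, beside -0.01 for all genes, and 3 of the 9 were called with at least a 2-fold difference, as were 29.3% of all genes. For 8 of the 9 genes no array of 1 group reached into the range of the other, which also held for 67% of all genes.

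Native NSCs were compared with the same neurons, and 8 of the 9 genes were called. In NSCs 7 of the 9 were higher (Lats1, Lats2, Stk4, Sav1, Wwc1, Amot and Amotl1), 1 was lower (Amotl2) and Nf2 was not called, where 33.3% of all genes were higher and 34.1% lower. The median difference was 1.16, beside -0.07 for all genes. Of the 9 genes, 5 were called with at least a 2-fold difference, against 31.2% of all genes, and 8 did not overlap, against 69.1% of all genes. Both comparisons use the same neuron arrays, so they are not independent of each other.

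yNSCs were then compared with NSCs directly, which share their medium. Lats2 was the only one of the 9 genes called higher in yNSCs, where 21.3% of all genes were called higher, and single arrays or another probe set removed that call. Lower in yNSCs were 5 genes (Stk4, Nf2, Wwc1, Amot and Amotl1), where 18% of all genes were lower. The Stk4 call was lost under 10 of 18 alternatives other than a 2-fold minimum, and when each gene's probe sets were averaged Nf2 and Amot were not called, which left 3 lower. Lats1, Sav1 and Amotl2 were not called. The median difference was -0.38, beside 0.07 for all genes. Wwc1 and Amotl1 were the 2 genes called with at least a 2-fold difference, as were 12% of all genes, and 6 of the 9 did not overlap, against 51.6% of all genes.

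**Figure D1:**
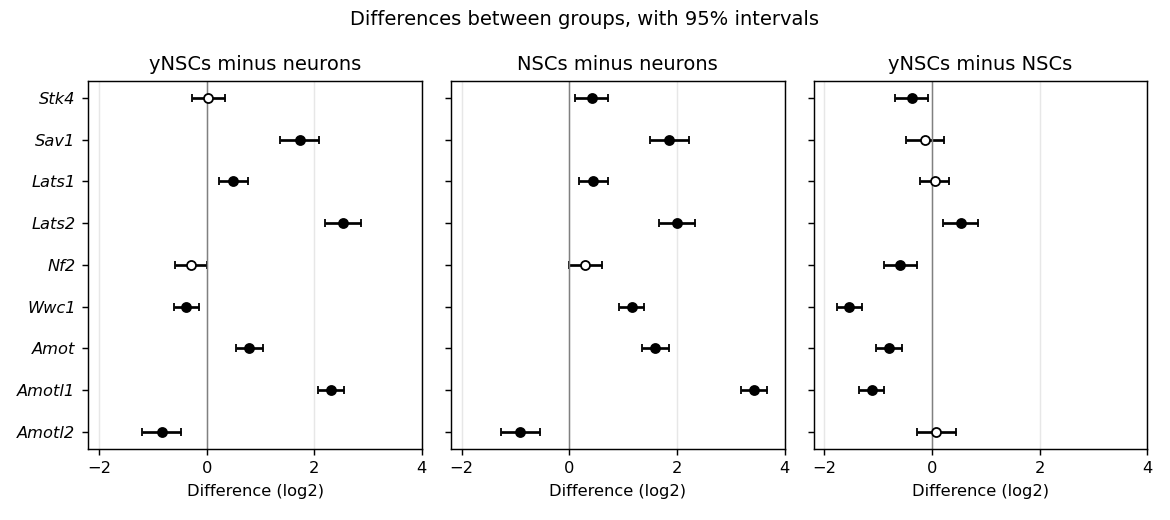
Differences between group means of the 9 genes, in log2 units on the horizontal axis, with 95% intervals from limma, for yNSCs minus neurons, NSCs minus neurons and yNSCs minus NSCs. Filled points are called at an adjusted p under 0.05 and open points are not. Each gene is shown by its probe set of highest mean. Among these, Amotl1 has the largest difference of NSCs from neurons (3.44), Lats2 the largest of yNSCs from neurons (2.53), and Wwc1 the largest of yNSCs from NSCs (-1.54).

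Stk4 encodes MST1, the kinase at the head of the core cascade, and lies at chr2:164074113-164155524 (gene positions are from RefSeq on GRCm38.p6). Its log2 values were 9.29, 9.24 and 9.04 in neurons, 9.83, 9.37 and 9.61 in NSCs, and 9.34, 9.32 and 9.01 in yNSCs. Neurons and yNSCs overlapped, and the lowest NSC array lay just above the highest array of either other group. NSCs were higher than neurons by 0.41 (SE 0.14, adjusted p = 0.0204, n = 3 each, limma), a 1.33-fold difference. That call was lost without neuron replicate C (0.34, adjusted p = 0.0758) or NSC replicate A (0.30, adjusted p = 0.0781). yNSCs did not pass against neurons, with a difference of 0.03 and a 95% interval of -0.27 to 0.34. Their difference from NSCs, -0.38, passed narrowly (adjusted p = 0.0493) and, of 9 fits that left out 1 array, was called only in the 2 that left out NSC replicate B or neuron replicate C (adjusted p = 0.0208 to 0.199 over the 9). A second Stk4 probe set, 1434159_at, gave 8.87, 8.97 and 8.53 in NSCs against 8.27, 8.18 and 8.02 in yNSCs, a difference of -0.63 (adjusted p = 0.00200). The third, 1421107_at, was higher than in neurons in both NSCs (0.45, adjusted p = 0.0148) and yNSCs (0.42, adjusted p = 0.0229) and gave no call between yNSCs and NSCs (-0.03). All 3 probe sets had their highest mean in NSCs.

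Sav1, at chr12:69965009-69988141, encodes the WW-domain adaptor that binds MST kinases and links them to LATS. Neurons read 7.40, 6.73 and 6.82, NSCs 8.64, 8.98 and 8.91, and yNSCs 8.77, 8.75 and 8.62. Every NSC and yNSC array was above every neuron array, and NSCs and yNSCs overlapped. yNSCs were higher than neurons by 1.73 (SE 0.17, adjusted p = 1.52e-06), or 3.32-fold, and NSCs by 1.86 (adjusted p = 7.25e-07), or 3.63-fold. The difference of yNSCs from NSCs did not pass (-0.13, 95% interval -0.49 to 0.23). The other probe set, 1416075_at, was called in the same direction with smaller differences from neurons, 0.47 in yNSCs and 0.33 in NSCs.

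The 2 LATS kinases, which phosphorylate YAP and TAZ, differed in how far they moved. Lats1, at chr10:7681200-7716461, read 9.19, 8.84 and 9.05 in neurons, 9.41, 9.53 and 9.47 in NSCs, and 9.68, 9.55 and 9.33 in yNSCs. Neurons lay below both other groups without overlap, and NSCs and yNSCs overlapped. The differences from neurons were 0.49 in yNSCs (SE 0.12, adjusted p = 0.00383, 1.41-fold) and 0.44 in NSCs (adjusted p = 0.00693, 1.36-fold), and yNSCs and NSCs did not differ beyond their spread (0.05, 95% interval -0.22 to 0.32). Both calls of Lats1 against neurons were lost when the deposited values were quantile normalized again (0.22 in yNSCs, adjusted p = 0.114, and 0.17 in NSCs, adjusted p = 0.215). Its second probe set, 1427679_at, was near background in neurons and was not called.

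Lats2, at chr14:57689662-57746212, was the member with the largest difference of yNSCs from neurons when each gene was read from its probe set of highest mean. That rank depended on the probe set. Amotl1 probe set 1455247_at gave a larger difference (3.08), and with the mean of all probe sets Amotl1 gave 2.16 and Lats2 1.07. Lats2 probe set 1439441_x_at read 4.24, 4.71 and 4.71 in neurons, 6.79, 6.44 and 6.43 in NSCs, and 7.09, 7.22 and 6.94 in yNSCs. The 3 groups did not overlap, with yNSCs highest and neurons lowest. The difference from neurons was 2.53 in yNSCs (SE 0.15, adjusted p = 2.19e-08, 5.78-fold) and 2.0 in NSCs (adjusted p = 1.75e-07, 4.0-fold). yNSCs were higher than NSCs by 0.53 (95% interval 0.20 to 0.86, adjusted p = 0.0150), or 1.44-fold. This last call was lost without NSC replicate B, NSC replicate C or yNSC replicate B (adjusted p = 0.0598, 0.0578 and 0.0659). The suffix of that probe set means that some of its probes may also match other transcripts, so the remaining 5 probe sets of Lats2 matter. Probe set 1437101_at read 4.50, 3.99 and 3.84 in neurons, 5.98, 6.19 and 6.12 in NSCs, and 6.17, 6.21 and 6.32 in yNSCs. It gave nearly the same distance of both stem cell groups from neurons (2.12 and 1.99) but no call between yNSCs and NSCs (0.14, adjusted p = 0.536). Probe set 1419678_at was higher in yNSCs than in neurons by 0.80 (adjusted p = 0.00361) and was not called in NSCs against neurons (0.32, adjusted p = 0.164) or in yNSCs against NSCs (0.47, adjusted p = 0.0743). The other 3 were near background in neurons and in NSCs, and 2 of them were called higher in yNSCs than in neurons (both 0.48).

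**Figure D2:**
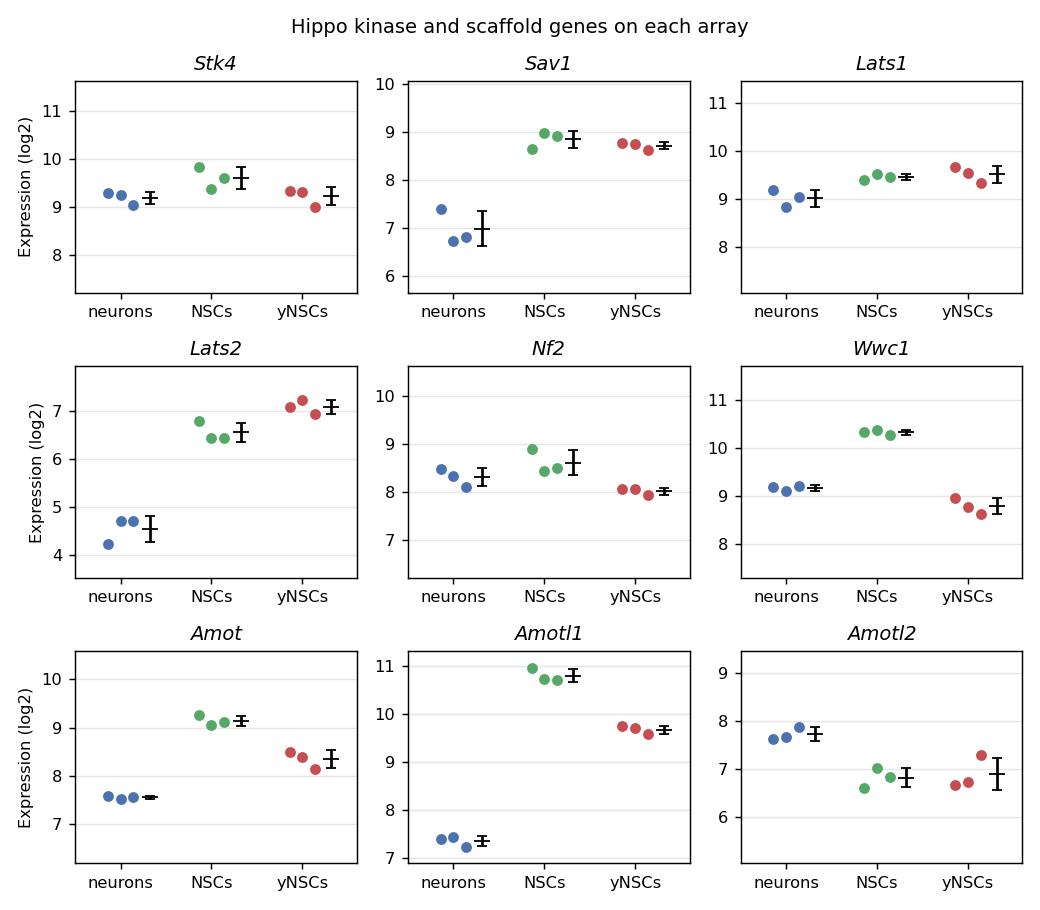
Expression of the 9 genes on each array, in log2 units on the vertical axis, with 1 point per array in the order A, B, C and the group mean ± SD (n = 3) to its right. Every panel spans the same number of log2 units. Neurons lie apart and below for Sav1, Lats1, Lats2, Amot and Amotl1 and apart and above for Amotl2, while NSCs lie apart and above for Stk4, narrowly, and for Wwc1, Amot and Amotl1.

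Nf2 encodes Merlin, a membrane-linked protein that recruits LATS kinases, and lies at chr11:4757639-4849544. It read 8.47, 8.34 and 8.11 in neurons, 8.90, 8.43 and 8.49 in NSCs, and 8.06, 8.06 and 7.93 in yNSCs. Neurons overlapped NSCs, while every yNSC array lay below every array of both other groups. yNSCs were lower than NSCs by 0.59 (the difference yNSCs minus NSCs was -0.59, SE 0.14, adjusted p = 0.00499), a 1.51-fold difference. The differences from neurons did not pass in yNSCs (-0.29, 95% interval -0.60 to 0.02, adjusted p = 0.0911) or in NSCs (0.30, 95% interval -0.01 to 0.61, adjusted p = 0.0761). None of the 3 other probe sets of Nf2, all with lower means, was called in any comparison, and with the mean of all its probe sets the difference of yNSCs from NSCs was -0.07 (adjusted p = 0.553).

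Wwc1 encodes KIBRA, a scaffold that activates LATS kinases and that is also known from synapses and memory, and lies at chr11:35838399-35980527. Neurons read 9.18, 9.09 and 9.21, NSCs 10.32, 10.37 and 10.27, and yNSCs 8.95, 8.77 and 8.62. The groups did not overlap, with NSCs highest and yNSCs lowest. NSCs exceeded neurons by 1.16 (SE 0.11, adjusted p = 1.03e-06, 2.23-fold), whereas yNSCs were below neurons (-0.38, adjusted p = 0.00804, 1.30-fold). yNSCs were therefore below NSCs by more than either differed from neurons, at -1.54 (95% interval -1.77 to -1.31, adjusted p = 3.15e-07, 2.91-fold). A second probe set, 1427261_at, read 8.08, 8.06 and 8.23 in neurons, at least 9.77 on each NSC array, and 8.10, 7.78 and 7.74 in yNSCs. It gave the same high position of NSCs (1.74 above neurons) and a gap of yNSCs from NSCs in the same direction (-1.99, adjusted p = 1.61e-07), but neurons and yNSCs overlapped on it and did not pass (-0.25, adjusted p = 0.105). Probe set 1420009_at, with means of 4.62 in neurons, 4.53 in NSCs and 4.59 in yNSCs, was not called in any comparison. Probe set 1420007_at was near background in every group and was called only in NSCs against neurons (0.47, adjusted p = 0.0121).

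The angiomotins are scaffolds of cell junctions and actin that bind YAP and TAZ and also activate LATS kinases. Amot, at chrX:145446424-145505966, read 7.58, 7.51 and 7.55 in neurons, 9.26, 9.06 and 9.11 in NSCs, and 8.50, 8.39 and 8.14 in yNSCs. The groups did not overlap, and yNSCs lay midway, 0.80 above neurons (SE 0.11, adjusted p = 5.36e-05, 1.74-fold) and 0.80 below NSCs (difference -0.80, adjusted p = 0.000125). NSCs were 3.02-fold above neurons (1.60, adjusted p = 9.36e-08). The other 2 probe sets of Amot, whose highest group mean was 4.65, were not called, and with the mean of all its probe sets the difference of yNSCs from NSCs was -0.20 (adjusted p = 0.0967).

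Amotl1, at chr9:14541966-14662974, had the largest difference of NSCs from neurons among the 9 genes. It read 7.40, 7.44 and 7.24 in neurons, 10.96, 10.72 and 10.71 in NSCs, and 9.74, 9.70 and 9.58 in yNSCs, again without overlap. NSCs were 10.8-fold above neurons (3.44, SE 0.11, adjusted p = 8.25e-11) and yNSCs 4.97-fold (2.31, adjusted p = 2.66e-09), and yNSCs were 2.18-fold below NSCs (-1.12, adjusted p = 5.60e-06). Probe set 1455247_at gave the same order, with 5.52, 5.17 and 5.24 in neurons, 9.20, 8.80 and 8.66 in NSCs and 8.40, 8.40 and 8.38 in yNSCs, and a smaller gap between the stem cell groups (-0.49, adjusted p = 0.0175). Probe set 1431121_at was also higher in both groups than in neurons but was called in the opposite direction between yNSCs and NSCs (0.37, adjusted p = 0.0232), so the distance of Amotl1 between yNSCs and NSCs depends on the probe set.

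Amotl2, at chr9:102717091-102733418, was the only one of the 9 genes called lower in both stem cell groups than in neurons. It read 7.63, 7.68 and 7.89 in neurons, 6.62, 7.02 and 6.84 in NSCs, and 6.68, 6.74 and 7.29 in yNSCs. Every neuron array was above every other array, and yNSCs overlapped NSCs. The differences from neurons were -0.83 in yNSCs (SE 0.17, adjusted p = 0.000798, 1.78-fold) and -0.91 in NSCs (adjusted p = 0.000387, 1.87-fold), and yNSCs did not pass against NSCs (0.08, 95% interval -0.28 to 0.44). It has a single probe set, so no other was there to check it. Lats2 and Amotl2 are both known to be induced by YAP and TAZ in other cells. In yNSCs and in native NSCs alike they lay on opposite sides of neurons.

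The order of the groups differed between members. NSCs had the highest mean for 6 of the 9 genes (Stk4, Sav1, Nf2, Wwc1, Amot and Amotl1), yNSCs for Lats1 and Lats2, and neurons for Amotl2. Both steps of the order were called for Lats2, Wwc1, Amot and Amotl1. For Lats1 and Sav1 the upper 2 groups, NSCs and yNSCs, did not differ beyond their spread, for Stk4 and Amotl2 the lower 2 did not, and for Nf2 neighbouring groups did not, with only the step from NSCs to yNSCs called.

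The 19 other probe sets were counted in a fit over all 34945 probe sets with 1 gene symbol. In yNSCs against neurons 8 of the 19 were called, 7 in the direction of the probe set that stood for the gene and 1 where the gene itself was not called (Stk4), where 59.3% of all probe sets were called. In NSCs against neurons 8 were called, all 8 in the gene's direction, where 64.6% of all probe sets were called. In yNSCs against NSCs 4 were called, 3 in the gene's direction and 1 against it (Amotl1), where 39.9% of all probe sets were called. Several of these other probe sets lay near background.

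**Figure D3:**
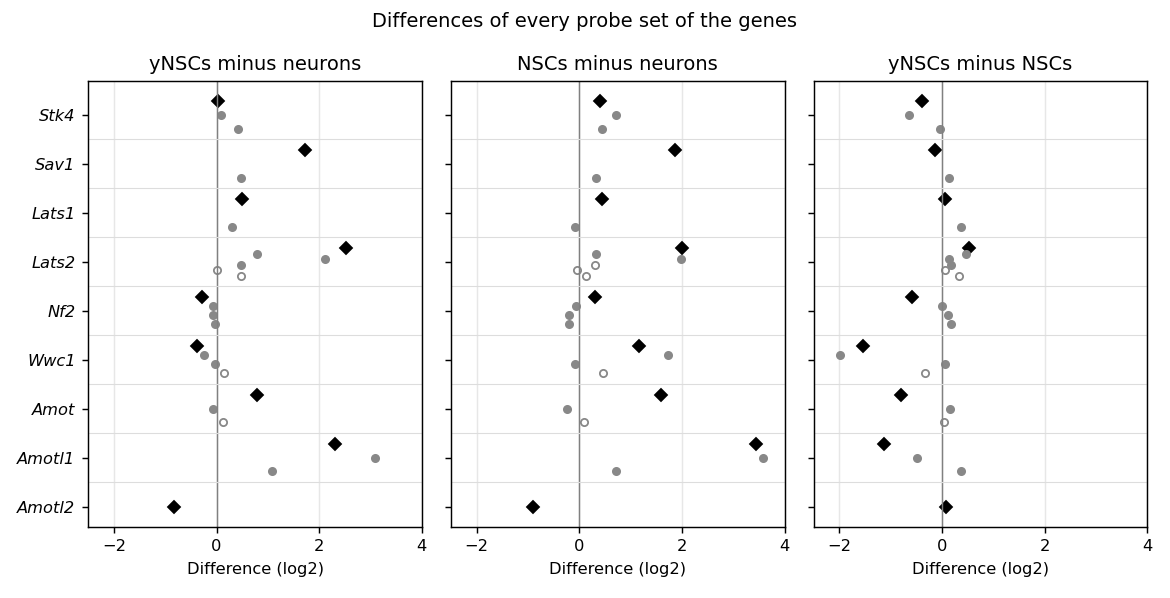
Differences of all 28 probe sets of the 9 genes, in log2 units on the horizontal axis, in the 3 comparisons. Diamonds are the probe sets that stand for a gene, filled circles other probe sets, and open circles other probe sets near background in both groups of that comparison. For Lats2, Amotl1 and Wwc1 a second probe set lies on the same side of 0 as the diamond in both comparisons with neurons, while for Amot and Nf2 the other probe sets lie near 0.

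The rest of the pathway was described from lists drawn up by role, 49 genes of which 44 were measured and the others were not analysed here. Each of the 44 was represented by its probe set of highest mean, and its other probe sets were not checked singly. In yNSCs against neurons 23 of the 44 rose, 9 fell and 12 were not called, with a median difference of 0.38. In NSCs against neurons 25 were higher, 7 lower and 12 not called, with a median of 0.56. In yNSCs against NSCs 6 were higher, 19 lower and 19 not called, with a median of -0.15. The shares of all genes called are those given above.

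Core cofactors and the related NDR kinases were all higher in both stem cell groups than in neurons (4 of 4 each). Among them Mob1a, which binds and activates LATS kinases, was 1.91 above neurons in yNSCs, and the NDR kinase gene Stk38l was 2.03 above neurons in NSCs and lower in yNSCs than in NSCs (-0.97). Kinases that can act on LATS beside MST did not move together. Against neurons, yNSCs had 1 of the 8 measured higher and 2 lower, with Map4k5 at 0.60 and Taok3 at -1.33, and NSCs had 1 higher and 3 lower, with Map4k4 at 1.12 and Taok3 at -0.90. In yNSCs against NSCs 2 were higher and 4 lower, with Mink1 at 0.86 and Tnik at -1.22.

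Apical and membrane regulators included the largest fall among the 44 genes. Fat4, which encodes a giant protocadherin, was lower in yNSCs than in neurons (-3.49) and than in NSCs (-3.97), with group means of 7.74 ± 0.07 in neurons, 8.22 ± 0.11 in NSCs and 4.25 ± 0.54 in yNSCs (SD, n = 3). Other genes of this list were mostly higher than in neurons, 6 of 10 in yNSCs, with the phosphatase gene Ptpn14 at 1.75, and 7 of 10 in NSCs, with Fat1 at 2.15. Against NSCs, 5 of the 10 were lower in yNSCs and 1, the polarity gene Crb1, was higher (0.36).

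Genes whose products restrain the kinases were spread in both directions. Against neurons, yNSCs had 6 of the 9 measured higher and 3 lower, and NSCs had 6 higher and 2 lower. Limd1, a LIM-domain protein that binds LATS kinases, was higher in both (2.76 in yNSCs and 4.35 in NSCs) and lower in yNSCs than in NSCs (-1.59). Strip2, a part of the STRIPAK phosphatase complex, was lower in both (-2.36 and -2.19), and it was near background in both, so the size of these differences is uncertain. Against NSCs 3 of the 9 were lower in yNSCs and none was higher. Of 6 RASSF genes, whose products bind MST kinases, yNSCs had 2 higher and 3 lower against neurons, and NSCs had 2 higher and 2 lower. Rassf3 was higher in both (1.33 and 3.50) and Rassf5 lower in both (-2.51 and -2.92). Between yNSCs and NSCs, 2 were higher and 2 lower, with Rassf1 at 0.64 and Rassf2 at -2.29.

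Of 7 effectors and nuclear partners, 4 were higher than in neurons in yNSCs (median 1.90) and 5 in NSCs (median 2.44), and none was lower in either. Yap1 was above neurons by 1.90 in yNSCs and by 2.44 in NSCs and was lower in yNSCs than in NSCs (-0.54, adjusted p = 0.0104), and these values cannot separate the mouse gene from any transcript of the vector that its probes would also match. Wwtr1, which encodes TAZ, was above neurons by 3.02 in yNSCs and 2.57 in NSCs and did not pass between them (0.45, adjusted p = 0.0531). Among TEAD genes, Tead1 was 3.11 above neurons in yNSCs, and Tead2 was 4.80 above neurons in NSCs and lower in yNSCs than in NSCs (-1.82). Tead4 passed only narrowly as higher in yNSCs than in NSCs, by 0.36 (adjusted p = 0.0458), and the arrays of these groups overlapped.

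**Figure D4:**
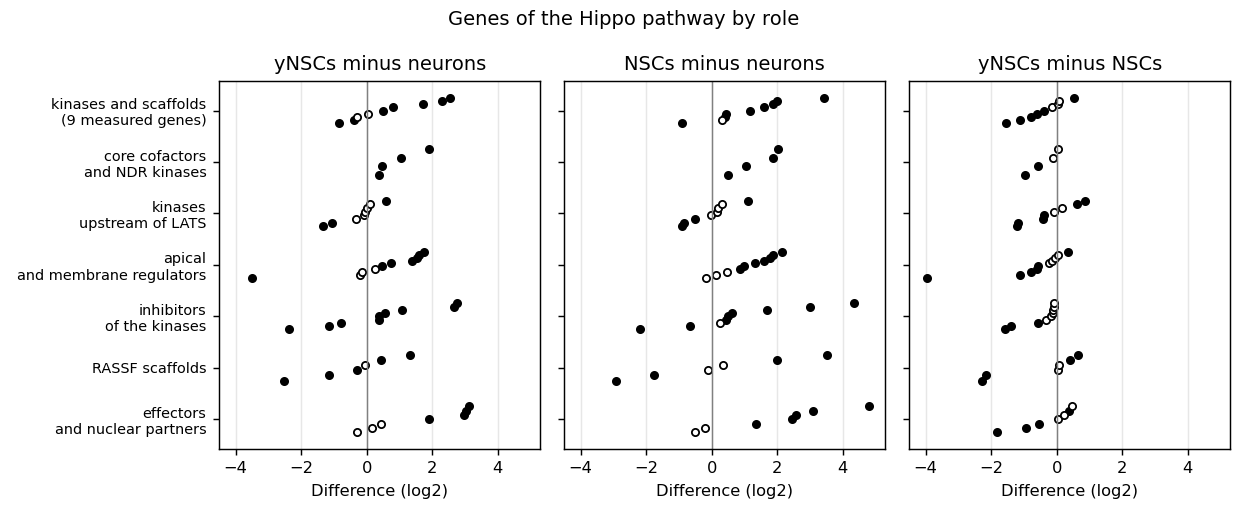
Differences of the 9 kinase and scaffold genes and of the 44 other measured genes of the pathway by role, in log2 units on the horizontal axis, with 1 point per gene, filled where called and open where not. Points of cofactors, membrane regulators and effectors lie mostly right of 0 against neurons, and in yNSCs minus NSCs 19 of the 44 are called lower and 6 higher, with Fat4 farthest left (-3.97).

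For each member the genes of most similar pattern were found by Pearson correlation of log2 values over the 9 arrays, as a description only, since arrays of a group share their level. Amotl1 was closest to the DNA ligase gene Lig1 and the centriole gene Stil (both 0.999), and 1482 genes correlated with it above 0.95. Sav1 was closest to Mastl, a kinase of mitotic entry, and Mcur1 (both 0.997, with 1259 genes above 0.95), and Lats2 to Dus2 (0.998) and Vat1 (0.997, with 1041 genes). Amot was closest to Gen1 and the Wnt pathway gene Axin2 (both 0.996, with 867 genes), and Wwc1 to Cnot6l (0.997) and Celf2 (0.996, with 204 genes), both of which encode proteins acting on RNA. The patterns of the remaining members were shared by few genes. Amotl2 was closest to Itgax (0.980) and Carmil2 (0.977, with 39 genes above 0.95), Lats1 to Hcfc2 (0.992) and Kif16b (0.974, with 23 genes), Nf2 to Acaca (0.982) and Kdm1a (0.979, with 9 genes), and Stk4 to Birc6 (0.994) and Cinp (0.970, with 3 genes).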

How the data were processed

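The authors deposited log2 expression values computed with RMA (per the labels), 1 per probe set and array, rounded to 2 decimals. The RMA version and the arrays normalized together are not given in the sources used here. Values were used as deposited. Of 45101 probe sets, 64 controls were left out, 34945 had 1 symbol in the array annotation (34741 matched a RefSeq gene ID), 932 had several and 9160 were not named here. Each of 18193 genes was represented by its probe set of highest mean. limma 3.58.1 (R 4.3.3) estimated 3 group means from all 9 arrays together, with 6 residual and 5.59 prior degrees of freedom. Each of 3 two-sided comparisons was adjusted by Benjamini-Hochberg over all genes, and a gene was called under 0.05. Differences are log2, first group minus second, with limma's moderated standard errors (SE). The fit was tested on simulated data. The number of arrays limits the precision: an exact two-sided permutation test of 3 against 3 reaches at best 0.1. Replicates are labelled biological, with no word on separate animals, so p-values measure the spread between these samples. No test for the arrays is given in the sources used here.

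The members and gene lists were chosen with earlier results of these data known. Named were all members, in each list the called gene of largest rise and of largest fall per comparison, Yap1, Wwtr1, and the 2 genes of most similar pattern per member. Fat4's group means, and Gfap, Aqp4, Olig1, Olig2, Pdgfra, Sox10, Acta2 and Tagln among the markers, were singled out after their values were seen. The alternatives tried were a replicate block on the letter, a fit of just the 6 arrays in question, a filter on the 40% of genes of lowest mean, subtraction of array medians, quantile normalization again, other choices of probe set, each probe set on its own, a trended robust prior, a 2-fold minimum, and leaving out each array.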

Additional observations from a re-analysis of the deposited data

Results flagged for a closer look

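Wwc1 was singled out because its difference from neurons was not the same in the 2 stem cell groups: all 3 NSC arrays lay above all neuron arrays and all 3 yNSC arrays lay below them. The difference from neurons in yNSCs minus that in NSCs was -1.54, which is the comparison of yNSCs with NSCs and was called in limma (adjusted p = 3.15e-07). The position of yNSCs below neurons was not called with the mean of all Wwc1 probe sets (-0.13, adjusted p = 0.231) or with probe set 1427261_at (-0.25, adjusted p = 0.0942).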

How the results depend on the processing

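Of the 27 results of the 9 genes in 3 comparisons, 21 were called, and 12 of these were called under every alternative other than the 2-fold rule. The other 9 were lost under at least 1: both Lats1 calls, Lats2 in NSCs against neurons and in yNSCs against NSCs, both Stk4 calls, Nf2 and Amot in yNSCs against NSCs, and Wwc1 in yNSCs against neurons. None of these alternatives put every other probe set of a gene in its place in turn. The call of Amotl1 in yNSCs against NSCs was kept, for example, although its probe set 1431121_at went the opposite way (0.37). Lats2 in NSCs against neurons was 0.32 (adjusted p = 0.157, over all alternatives 7.98e-08 to 0.157) with 1419678_at in place of the probe set ending in _x_at. Averaging its probe sets put Lats1 in NSCs against neurons at 0.18 (adjusted p = 0.0872). Stk4 in NSCs against neurons was 0.15 (adjusted p = 0.354) after quantile normalization again. Nf2, not called against neurons, was called under 3 alternatives in yNSCs (-0.59 and adjusted p = 0.00251 after quantile normalization again, and without neuron replicate C or NSC replicate A) and under 4 in NSCs (the replicate block, subtraction of array medians at 0.35, and without neuron replicate A at 0.38 or NSC replicate B at 0.39). Signs turned only for differences not called: Stk4 in yNSCs against neurons (-0.23 after quantile normalization again, -0.042 to 0.140 when single arrays were left out), Nf2 in NSCs against neurons (-0.023 after quantile normalization again, -0.041 with the mean of all probe sets), Sav1 in yNSCs against NSCs (0.007 with that mean), and, when single arrays were left out, Lats1 (-0.03 to 0.15) and Amotl2 (-0.12 to 0.19) in yNSCs against NSCs. The cause was not tested. With a 2-fold minimum, members called were 3 in yNSCs against neurons (3 higher, 0 lower), 5 in NSCs against neurons (0 lower) and 2 in yNSCs against NSCs (0 higher, 2 lower), and of the other pathway genes 14 were higher in yNSCs against neurons, 3 lower in NSCs against neurons, and 0 higher and 9 lower in yNSCs against NSCs. With the mean of all probe sets 3 members were lower in yNSCs against NSCs and 1 in yNSCs against neurons. With probe sets not ending in _x_at or _s_at 0 were higher in yNSCs against NSCs and 1 was lower in yNSCs against neurons. Leaving out single arrays gave 0 to 1 members higher in yNSCs against NSCs. Without the 40% of genes of lowest mean 4 other pathway genes were lower in NSCs against neurons. Deviations from the group means gave no sign that the replicate letters pair the arrays (correlations -0.105 to 0.100 for the same letter, -0.184 to 0.136 for others). With so few arrays in a group they cannot show that no pairing exists. With the replicate block Nf2 in NSCs against neurons (0.30) was called (adjusted p = 0.0477) and no other member call changed.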

Other observations

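A further probe set, named for both Xpo4 and Lats2 and therefore left out of all comparisons, read 5.80, 6.22 and 5.89 in neurons, 6.94, 6.61 and 6.66 in NSCs, and 6.25 on all 3 yNSC arrays.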
